A study of Arabidopsis thaliana with 12 samples.

Results

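The effect of losing BOU on the day transcriptome was measured by comparing rosettes of bou-2 with rosettes of WT (Col-0) after the onset of light. The comparison held 6 of the 12 RNA-Seq libraries of the study, 3 of each genotype, and the other 6 were the same genotypes at the end of the night. Every gene with enough counts was a member, which left 20458 of the 33326 genes in the table, with 1 transcript per gene, the most abundant one on average in WT. Plants of both genotypes had 35 days of growth in 12 h light at 3000 ppm CO2 and were at ambient CO2 for the last 24 h, so WT had made the same shift as bou-2. bou-2 is a T-DNA insertion line of BOU (AT5G46800) in the Col-0 background, and no further allele and no complemented line was analysed here. The sample titles place the day harvest after light onset, and the design text puts it at 2 h, while the source field of the same samples names the end of the day. The titles were followed. The labels give mature leaves as the tissue, and the study's methods give whole rosettes and an earlier harvest. Each group had 3 libraries that the labels name biological replicates, with no word on the plants behind each one.

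BOU encodes a carrier of the inner mitochondrial membrane. It is needed for the activity of glycine decarboxylase (GDC), the mitochondrial enzyme complex that splits the glycine made in photorespiration. Photorespiration begins when Rubisco takes oxygen in place of CO2, so that air rich in CO2 suppresses it. According to the study, bou-2 has reduced GDC activity and held large amounts of glycine after the move from such air to ambient air. Transcript levels are given in TPM, a measure scaled for transcript length and library depth, for WT libraries 1, 2 and 3 and then for bou-2 libraries 1, 2 and 3. Log2 fold changes are bou-2 over WT at day with their standard error (SE), and a gene was called when its Benjamini-Hochberg adjusted p was under 0.05 in the quasi-likelihood test of edgeR.

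Summed estimated counts were 26561237 to 33046562 per library in WT and 15911356 to 20952513 in bou-2. The 10 most abundant transcripts took 6.32 to 8.10% of them in WT and 4.56 to 4.98% in bou-2. WT library 2 stood apart for jasmonate genes, whose 24 members summed to 19637 TPM there against 1171 and 1203 TPM in the other WT libraries and 1222 to 1801 TPM in bou-2, and results that rest on it are given without it. Summed levels of the 6 mesophyll markers were 38322 to 50896 TPM in WT and 28224 to 32085 TPM in bou-2, and 4 of these genes were called lower (1 without bou-2 library 3 and none in a fit of the 6 day libraries alone). The 7 root markers summed to at most 1.99 TPM in any library, with COBL9, EXPA18, EXPA7 and RHD6 at 0 in all 6, the 5 flower markers to at most 1.97 TPM and the 3 seed markers to at most 1.58 TPM. Vascular markers summed to 27.5 to 75.1 TPM in WT and 21.4 to 65.8 TPM in bou-2, guard cell markers to 24.1 to 28.1 TPM and 17.6 to 21.6 TPM, and trichome markers to 4.41 to 16.3 TPM and 5.61 to 8.69 TPM. In rosettes, fewer cells of a type and less RNA per cell cannot be told apart.

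BOU itself (chromosome 5, 18988588 to 18990867, TAIR10.1) was at 230, 139 and 171 TPM in WT and at 80.6, 80.7 and 80.2 TPM in bou-2. The groups did not overlap, and the log2 fold change was -1.25 ± 0.14 (SE, edgeR adjusted p = 0.00024). Reads from both sides of the insertion enter this value, which is summed along the transcript.

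Of the genes tested, 3021 (14.8%) were called higher in bou-2 and 2627 (12.8%) were called lower. Most of these differences were moderate, with a median log2 fold change of 0.70 for the higher genes and -0.75 for the lower ones. Over 2-fold were 940 higher and 827 lower genes, and over 4-fold were 399 and 149. Genes called higher had a median level of 14 TPM in WT and genes called lower 18.3 TPM, against 10.2 TPM for all genes tested. The TPM values of the groups did not overlap for 37.4% of all genes, with bou-2 higher for 24.5% and lower for 12.9%. By this measure rises outnumbered falls more than they did among the calls. The balance between the directions depended on the scale, since limma on log2(TPM + 1) called 3915 higher and 1703 lower, with the median over all genes at 0.05 in place of -0.04. In a fit of the 6 day libraries alone, named the day-only fit here, 1452 (7.32%) and 822 (4.15%) were called. Of 226 counts of calls, 1 per list or family and direction, 120 fell by more than 1.5 times in the day-only fit, while 34 fell and 20 rose that far by limma. Where this holds for a list described here, its count is given beside it. Without bou-2 library 2 or 3 the count of lower genes was 1616 or 1577.

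At the end of the night, 1759 of the genes called higher at day (of 3021 at day and 3022 at night) and 1336 of those called lower (of 2627 and 2499) were called in the same direction, and 69 were called in opposite directions. The difference between the bou-2 effects at the 2 times was called for 110 genes upwards (0.538%) and 132 downwards (0.645%), while 3383 had an unadjusted p under 0.05 in edgeR. These 2 counts depended strongly on single libraries, with 548 and 534 genes called without WT day library 3 and 22 to 53 and 30 to 74 with 1 night library or bou-2 day library 2 or 3 left out.

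A set of mitochondrial proteins is induced in Arabidopsis when respiration or protein synthesis in the mitochondrion is disturbed, by NAC transcription factors that leave the endoplasmic reticulum and bind a short promoter motif. Of 17 genes listed for this retrograde response, 10 were called higher and none lower, at a median log2 fold change of 1.24 against -0.04 over all genes, with 14.8% of all genes called higher. The filter on low counts would have kept 14 of the 17 on the WT libraries alone, and 7 of these 14 were called higher. The other members were tested because of their counts in bou-2, so their calls are no support for a rise. The median of 1.24 includes them. Left-out libraries gave 9 to 12 higher genes.

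The promoters of these genes are shown because 10 of the 17 (58.8%) hold the motif that the NAC factors bind. It was in 1.1% of the 20268 promoters of all tested genes. Of the 3014 promoters of genes called higher 1.49% held it, and of the 2611 of genes called lower 1.03%. The 17 genes were listed as members of this response, so their share is not a result of these data. The window searched ran from 250 bases before to 50 bases after the RefSeq gene start (TAIR10.1). The motif was searched on both strands as CTTG followed after any 5 bases by CAAG or CACG, and each line gives 30 bases on the strand of the gene with the match in capitals. A match is a description of the sequence. Of the 10 genes with a match, 7 were called higher.
AOX1A (chr3:7906510-7906539, plus strand): atctagctCTTGGCGACCACGcaagtatct
UPOX (chr2:9254319-9254348, plus strand): tttagtaaCTTGCTCTCCAAGgagatctag
HSP23.5 (chr5:20891045-20891074, plus strand): ttattttaCTTGGAGACCACGcagttctag
UGT74E2 (chr1:1704804-1704833, minus strand): ccgcacatCTTGGTCGCCACGgaacataga
AT12CYS-2 (chr5:2970503-2970532, plus strand): gcaagaaaCGTGACGGGCAAGgggaatatt
NDB2 (chr4:2572340-2572369, plus strand): cgatctggCTTGGCCACCAAGattgtttga
ANAC017 (chr1:12451287-12451316, plus strand): acctctgtCGTGTCAGACAAGaatgttgga
The first 5 belong to genes called higher, and NDB2 and ANAC017 were not called.

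AOX1A, the alternative oxidase that passes electrons to oxygen without pumping protons, was at 40.7, 36.9 and 25.5 TPM in WT and at 129, 103 and 149 TPM in bou-2. Every bou-2 library was above every WT library, and the log2 fold change was 1.79 ± 0.20 (SE, edgeR adjusted p = 0.00023). UPOX, a small mitochondrial protein induced by oxidative stress, was at 28, 15.6 and 12.7 TPM in WT and at 105, 79.8 and 133 TPM in bou-2 (2.35, edgeR adjusted p = 0.00015). HSP23.5, a small heat shock protein of mitochondria, was nearly absent from WT at 1.42, 3.22 and 1.01 TPM and reached 41.2, 23.5 and 40.5 TPM in bou-2, at 4.11 ± 0.50 (SE, edgeR adjusted p = 0.00035). In all 3 genes bou-2 library 2 was the lowest of the bou-2 libraries and still lay above WT.

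UGT74E2, which glucosylates the auxin indole-3-butyric acid, rose from 2.93, 0.923 and 0.388 TPM to 75.4, 34.8 and 76.2 TPM (5.39 ± 0.96 SE, edgeR adjusted p = 0.00293). AT12CYS-2, a small cysteine-rich mitochondrial protein, gave 2.76. NDB4, an external NAD(P)H dehydrogenase, gave 3.42 from levels under 2 TPM. AT12CYS-2 and NDB4 had 35 and 15 estimated counts over the WT day libraries, too few to pass the filter on those libraries. Their calls are therefore no support for a rise. ANAC013, one of the NAC factors of the response, rose by a small amount, from 16.3, 15.6 and 14.6 TPM to 23, 20.1 and 23.4 TPM (0.43, edgeR adjusted p = 0.0172), and its call was lost without bou-2 library 3 (adjusted p = 0.0508).

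Other members did not follow. AOX1D, another stress-induced alternative oxidase, was at 6.11, 11.4 and 2.54 TPM in WT and at 4.23, 1.79 and 4.82 TPM in bou-2 (edgeR adjusted p = 0.316), with overlapping groups. OM66, an outer membrane protein induced by salicylic acid, gave -0.62 (edgeR adjusted p = 0.336). NDB2 gave 0.52 at day (edgeR adjusted p = 0.101), ANAC017, the factor that starts the response and is regulated after translation, 0.14 (adjusted p = 0.424), and NDA1, an internal NAD(P)H dehydrogenase, 0.25 (adjusted p = 0.227). At night AOX1D and NDB2 were called higher, at 2.87 and 1.72, but their day and night effects did not pass the test of the difference (edgeR adjusted p = 0.0947 and 0.096).

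Of 45 tested heat shock and small heat shock genes 14 were higher and 2 lower, at a median of 0.10. Among the 14 were a pair of genes for chaperones of mitochondria. The mitochondrial Hsp70 gene mtHsc70-1 went from 59.2, 67.4 and 55.2 TPM to 178, 147 and 195 TPM (1.43 ± 0.10 SE, edgeR adjusted p = 2e-05), and HSP60, the mitochondrial chaperonin, from 55.3, 67 and 51 TPM to 132, 111 and 129 TPM (1.01, adjusted p = 0.0002). Among 63 respiratory chain and ATP synthase genes 12 were higher (19%) and 4 lower (6.35%), at a median of 0.20. Of all genes 14.8% were higher and 12.8% lower, so the share called higher was not far above that of all genes. The higher calls included COX15, which makes the heme of cytochrome c oxidase (1.40, adjusted p = 7.5e-05), and COX17, its copper chaperone (1.24, adjusted p = 0.00043). Without bou-2 library 2 the 12 became 7, and the 4 became 2 without WT library 1 or bou-2 library 2 or 3. The day-only fit gave 3 and 0, and limma 25 and 2.

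**Figure D1:**
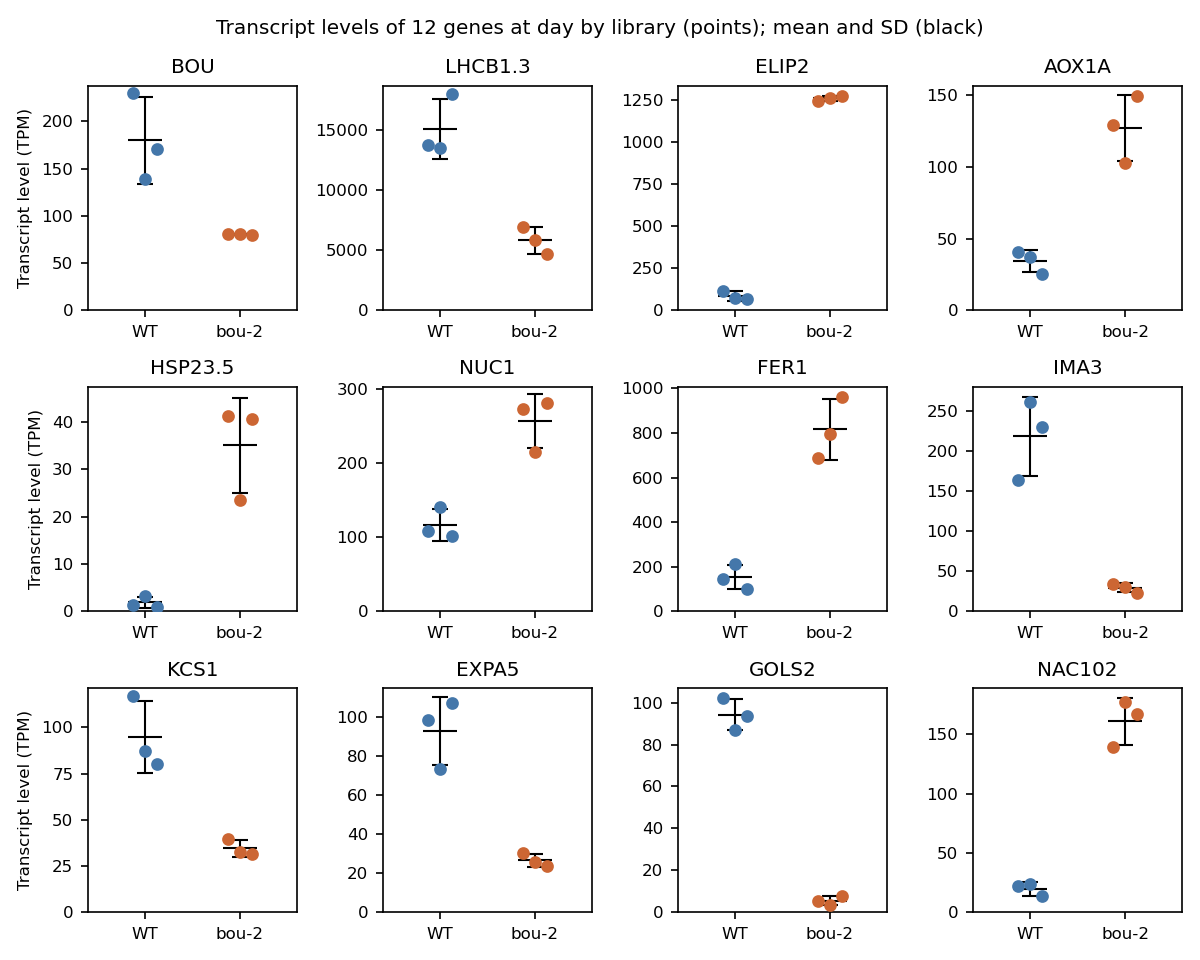
Transcript level in TPM (vertical axes, from 0) of 12 genes in the 3 WT and 3 bou-2 day libraries, one point per library, with the mean and SD in black. In each of the 12 panels the bou-2 libraries lie wholly above or wholly below the WT libraries, as for FER1 (690 to 963 TPM against 102 to 211 TPM) and IMA3 (23.2 to 34.7 TPM against 164 to 261 TPM).

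Many genes of protein synthesis and breakdown rose. Of 335 tested ribosomal protein genes 140 (41.8%) were called higher and 20 (5.97%) lower, and their summed level was 70933 to 73707 TPM in WT and 90214 to 94849 TPM in bou-2. The 4 falling genes with the smallest adjusted p were emb1473, RPS9, RPL9 and RPL15, which encode subunits of the plastid ribosome and fell by 0.94, 0.82, 0.76 and 0.85 on the log2 scale (edgeR adjusted p = 0.00212 to 0.00524). emb1473 was at 538, 440 and 627 TPM in WT and at 329, 301 and 268 TPM in bou-2. The count of 140 was 87 without bou-2 library 2, and the count of 20 was 10 without WT library 3, 12 without bou-2 library 1 and 8 without bou-2 library 3. The day-only fit called 57 higher and 4 lower. AT2G42710, of the L1 family, was among the 4 rising members with the smallest adjusted p and went from 11.5, 14.3 and 14.3 TPM to 34.2, 33.9 and 37 TPM (1.29, edgeR adjusted p = 0.0002).

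The nucleolus, where ribosomes are assembled, showed the same direction in all 8 listed genes (8 higher, median 0.84, 7 to 8 with a library left out). NUC1, the nucleolin that is needed for the transcription and processing of ribosomal RNA, was at 108, 141 and 101 TPM in WT and at 273, 215 and 281 TPM in bou-2 (1.05 ± 0.15 SE, edgeR adjusted p = 0.00086). FIB1 and FIB2, the fibrillarins that methylate ribosomal RNA, gave 0.76 (adjusted p = 0.00029) and 1.26 (adjusted p = 0.00301), and NOP56, their partner, 1.07 (adjusted p = 0.00061). Groups did not overlap for any of the 8 genes, which was the case for 24.5% of all genes with bou-2 higher.

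Plant genes for ribosomes often carry a telo-box near their start. The letters AAACCCTA, searched on both strands of the same window, were found in 5.66% of all promoters, in 11.2% of the 3014 promoters of genes called higher, in 2.99% of the 2611 promoters of genes called lower, in 37.7% of the 313 ribosomal protein promoters and in 6 of the 8 nucleolar ones. All 6 belonged to genes called higher, and 3 are shown with the match in capitals, on the strand of the gene and from RefSeq (TAIR10.1).
NUC1 (chr1:18098071-18098100, plus strand): tacatgttctaAAACCCTAagctgaaaaat
FIB2 (chr4:13074103-13074132, plus strand): aaaccctgttaAAACCCTAgcttgaaacac
NOP56 (chr1:20986951-20986980, minus strand): ttaaacccctgAAACCCTAgtttcgttcgt
The levels of these 3 genes are those given above.

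Pentatricopeptide repeat (PPR) proteins, which edit and process the RNA of mitochondria and plastids, had 82 of 243 tested genes called higher (33.7%) and 1 lower, at a median of 0.49. The 82 became 53 without bou-2 library 3 and 30 in the day-only fit, and the lower one was not called there or by limma. AT1G08610 rose from 3.47, 3.33 and 3.3 TPM to 8.67, 7.46 and 9.45 TPM (1.25, edgeR adjusted p = 8.6e-05) and emb1796 from 7.3, 8.52 and 7.68 TPM to 21.7, 18.5 and 25.4 TPM (1.38, adjusted p = 0.00015). Aminoacyl-tRNA synthetases, which load tRNAs, had 19 of 40 higher and 1 lower (12 higher without bou-2 library 3, and 0 to 3 lower with a library left out). DEAD box RNA helicases, which unwind RNA, had 13 of 33 higher and 2 lower (1 or 2 with a library left out), and translation initiation and elongation factors 21 of 87 higher and 5 lower (1 without bou-2 library 1 and 2 without bou-2 library 2 or 3). In the day-only fit the higher genes of these 3 groups were 9, 5 and 8, with none lower, and limma called 0, 1 and 2 lower.

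The proteasome, which degrades tagged proteins, had 32 of its 51 genes (62.7%) called higher and none lower, at a median of 0.40, and 26 to 35 with a library left out or 18 in the day-only fit. RPT2a, an ATPase of its cap, was at 82.7, 83.9 and 71.3 TPM in WT and at 150, 151 and 197 TPM in bou-2 (0.97 ± 0.09 SE, edgeR adjusted p = 0.00011). PBG1 and PAB1, subunits of its core, gave 0.88 (adjusted p = 9.4e-05) and 1.09 (adjusted p = 0.00012). Summed over the 51 genes, the level was 2671 to 3241 TPM in WT and 4296 to 5115 TPM in bou-2. Of 13 autophagy genes 4 were higher, with NBR1, a receptor that carries protein aggregates to the vacuole, at 0.92 (adjusted p = 0.00083), and 1 gene was called without bou-2 library 2 or 3 or in the day-only fit and 8 by limma.

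**Figure D2:**
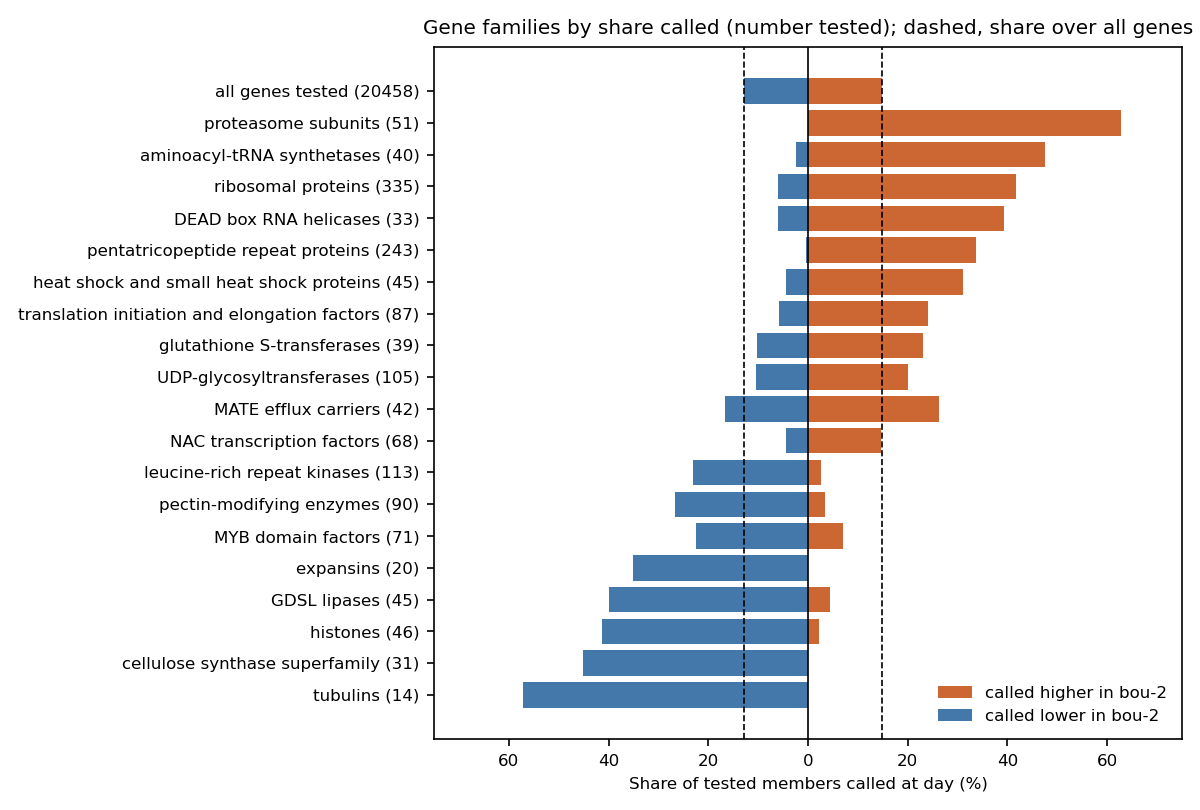
Share of tested members called higher (right) or lower (left) in bou-2 at day, in percent, for 19 gene families and for all genes, with the number tested in brackets and dashed lines at the shares over all genes (14.8% and 12.8%). Proteasome subunits (62.7% higher) and ribosomal proteins (41.8% higher) lie far to the right, and tubulins (57.1% lower) and the cellulose synthase superfamily (45.2% lower) far to the left.

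Nuclear genes of the photosynthetic apparatus fell. Of 20 genes for the light-harvesting antenna, the chlorophyll proteins that pass absorbed light to the photosystems, 17 were called lower and none higher, at a median of -1.17, and their summed level was 50449 to 70623 TPM in WT and 23665 to 30766 TPM in bou-2. LHCB1.3 was at 13790, 13518 and 18036 TPM in WT and at 6942, 5881 and 4668 TPM in bou-2, so that the groups did not overlap (-1.48 ± 0.19 SE, edgeR adjusted p = 0.00042). LHCB2.3 (1185, 753 and 1284 TPM against 189, 145 and 93.5 TPM) and LHCB1.4 (1537, 763 and 1168 TPM against 190, 179 and 118 TPM) fell furthest in the list, by 3.01 (adjusted p = 0.00011) and 2.91 (adjusted p = 8e-05) on the log2 scale. The 3 members not called were LHCB4.3 (-0.66), LHCA5 (-0.02) and LHCA6 (-0.41). Near-identical LHCB1 copies share reads, which were split between them by the authors' program.

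Of 23 nuclear genes for photosystem subunits 17 were lower and none higher, at a smaller median of -0.62. This count was 9 without WT library 3, 8 without bou-2 library 3 and 3 in the day-only fit, which called 14 antenna genes lower. PSBQ2, of the oxygen-evolving complex, fell from 1103, 1066 and 1542 TPM to 736, 650 and 558 TPM (-1.04, edgeR adjusted p = 0.00283), and PSAD2, the ferredoxin-docking subunit of photosystem I, from 484, 420 and 625 TPM to 294, 273 and 241 TPM (-1.03, adjusted p = 0.00159). Rubisco small subunit gene RBCS1A was at 21625, 21286 and 27196 TPM in WT and at 15586, 14331 and 13508 TPM in bou-2 (-0.80, adjusted p = 0.00295). The transcription factors that activate such genes fell too, GLK1 by 0.88 (adjusted p = 0.00884) and GLK2 by 0.77 (adjusted p = 0.00172).

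Chlorophyll and heme synthesis had 8 of 23 genes lower and 1 higher. CHLM, a methyltransferase on the way to chlorophyll, gave -0.85 (edgeR adjusted p = 0.00876), and FC2, the ferrochelatase of leaf plastids, was the higher one at 0.57 (adjusted p = 0.021), a call lost without WT library 1 or 2 or bou-2 library 2 or 3 (adjusted p up to 0.0689). The 8 lower calls were 4 without bou-2 library 1 and 3 without bou-2 library 3, and 4 genes were higher without WT library 3. The day-only fit called 2 lower and none higher, and limma 2 higher. In the opposite direction, the early light-induced proteins, which bind chlorophyll under light stress, were both higher. ELIP2 was at 116, 74.6 and 66 TPM in WT and at 1243, 1259 and 1269 TPM in bou-2, a narrow range far above WT (3.78 ± 0.20 SE, edgeR adjusted p = 4.4e-06), and ELIP1 gave 1.79 (adjusted p = 0.00401). NYC1, NYE1 and PAO, which take chlorophyll apart, were the higher 3 of 14 senescence genes, at 1.43, 0.77 and 0.65 (adjusted p = 0.00017, 0.00106 and 0.00389).

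Iron genes shifted in 2 opposite groups. Plants short of iron switch on a set of bHLH transcription factors and small peptides that start iron uptake and transport, and store surplus iron in plastid ferritins. Of 17 iron deficiency genes 14 were called lower and none higher, at a median of -1.01, and all 17 were below 0. The day-only fit called 9 lower. IMA3, a peptide that signals iron deficiency, was at 164, 261 and 230 TPM in WT and at 34.7, 30.7 and 23.2 TPM in bou-2 (-3.03 ± 0.28 SE, edgeR adjusted p = 9.4e-05). bHLH38 fell from 6.08, 26.4 and 9.07 TPM to 1.43, 0.912 and 0.77 TPM (-3.82, adjusted p = 0.00167). WT library 2 was the highest library for both genes, and neither call was lost with a library left out (adjusted p up to 0.0109).

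The other bHLH factors of the same subgroup, bHLH39, bHLH100 and bHLH101, gave -3.44, -3.56 and -3.04 (edgeR adjusted p = 0.00456, 0.0013 and 0.0053), and IMA1 gave -2.61 (adjusted p = 0.00285). PYE, a repressor of iron transport genes, went from 22.3, 21.3 and 26.1 TPM to 12.3, 11 and 14 TPM (-1.01, adjusted p = 0.00046), and BTS, a ubiquitin ligase that binds iron, gave -0.97 (adjusted p = 0.00562). OPT3, a phloem iron transporter (-0.43), and NAS4, a nicotianamine synthase (-0.86), had adjusted p of 0.0403 and 0.0445 and lost their calls without several libraries. BTSL2, ILR3 and CGLD27 were not called, at -0.27, -0.32 and -0.24.

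All 4 ferritin genes were called higher. FER1 was at 147, 211 and 102 TPM in WT and at 690, 796 and 963 TPM in bou-2 (2.33 ± 0.27 SE, edgeR adjusted p = 0.00026), and FER2, FER3 and FER4 gave 2.52, 0.98 and 0.87 (adjusted p = 0.00078, 0.00023 and 0.0008). The groups did not overlap for any of them. At night the median of the 4 genes was 0.43 against 1.65 at day, and the difference was called for FER3 (0.83, adjusted p = 0.0368), with FER1 at 1.32 (adjusted p = 0.125). MT2A, a metallothionein that binds metals, rose from 657, 775 and 601 TPM to 2566, 2921 and 2918 TPM (1.91, adjusted p = 1.6e-05).

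**Figure D3:**
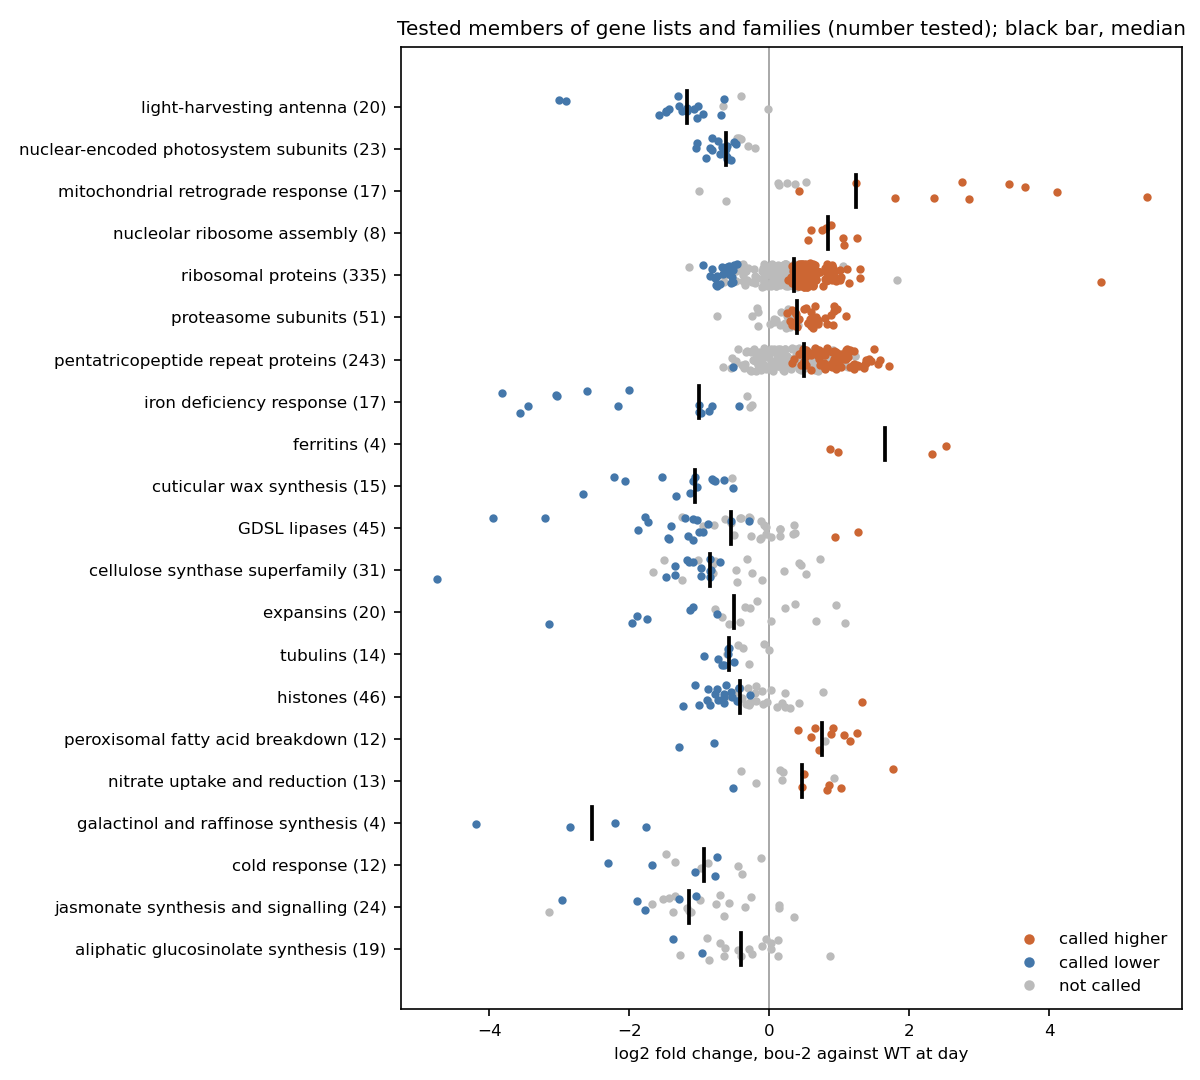
Log2 fold change of bou-2 over WT at day (horizontal axis) for every tested member of 21 lists and families, one point per gene, coloured by its call, with the number tested in brackets and the median as a black bar. The antenna, wax and raffinose lists lie to the left of 0, with medians of -1.17, -1.06 and -2.53, while the ferritin, nucleolar and retrograde lists lie to the right at 1.65, 0.84 and 1.24.

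Genes for the leaf surface and the cell wall fell. Of 15 tested genes for cuticular wax, the layer of very long-chain lipids that limits water loss, 14 were called lower and none higher, at a median of -1.06, and 13 or 14 with any day library left out. KCS1, which elongates fatty acids, was at 117, 87.1 and 80.1 TPM in WT and at 39.8, 32.5 and 31.4 TPM in bou-2 (-1.53 ± 0.13 SE, edgeR adjusted p = 7.9e-05), and KCS6, the main elongase of wax, at 239, 253 and 205 TPM and at 127, 106 and 115 TPM (-1.09, adjusted p = 0.00011). CER1, which forms alkanes, fell by 2.22 (adjusted p = 0.00264) and CER4, which forms alcohols, by 2.66 (adjusted p = 0.00555). MYB96, an activator of wax genes, fell by 0.82 (adjusted p = 0.00321). CER3, the partner of CER1, was the exception at -0.53 (adjusted p = 0.277), with 123 TPM in WT library 1 and 37 and 42.2 TPM in the others. WT library 1 held the highest level of CER1, CER3, CER4 and WSD1 among the 6 libraries.

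GDSL lipases, several of which build cutin, had 18 of 45 genes lower and 2 higher (10 and 1 in the day-only fit). AT3G16370 (272, 218 and 326 TPM against 83.8, 75 and 79 TPM) and AT1G29660 (388, 345 and 382 TPM against 146, 155 and 145 TPM) fell by 1.88 and 1.41 on the log2 scale (edgeR adjusted p = 3.8e-05 and 3.2e-05). For cell walls, the cellulose synthase superfamily had 14 of 31 genes lower and none higher (3 higher without WT library 1, and 7 lower in the day-only fit), with CESA5, a subunit of the primary wall synthase, at -0.98 (adjusted p = 0.0048) and CSLA01, a mannan synthase-like gene, at -4.75 (adjusted p = 0.0076) from levels of 3.78 to 13 TPM. Expansins, which loosen walls during growth, had 7 of 20 lower and none higher, with EXPA5 at 98.1, 73.2 and 107 TPM in WT and 30.4, 25.9 and 23.8 TPM in bou-2 (-1.89 ± 0.16 SE, adjusted p = 6.5e-05) and EXPB1 at -3.15 (adjusted p = 0.00023). Pectin-modifying enzymes had 24 of 90 lower and 3 higher (12 lower in the day-only fit), and PME44, a pectin methylesterase, gave -1.47 (adjusted p = 3.2e-05).

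Tubulins, the building blocks of microtubules, had 8 of 14 genes lower and none higher. TUB6 fell from 193, 103 and 153 TPM to 98.6, 73.4 and 77.6 TPM (-0.93, edgeR adjusted p = 0.00722) and TUB4 by 0.67 (adjusted p = 0.00384). The 8 became 4 without WT library 3, 2 without bou-2 library 2 or in the day-only fit and 3 without bou-2 library 3. Of 46 histone genes 19 were lower (11 in the day-only fit) and 1 higher. The core histone gene AT5G59690 was at 367, 289 and 289 TPM in WT and at 163, 132 and 145 TPM in bou-2 (-1.23 ± 0.13 SE, adjusted p = 0.00015), and HTA6, an H2A gene, gave -1.01 (adjusted p = 0.00041). HIS1-3, a linker histone induced by drought, was the higher one (1.33, adjusted p = 0.0251), a call lost without WT library 2 or 3 or bou-2 library 2 or 3 (adjusted p up to 0.0761). Of 30 genes for the cell cycle and DNA replication 2 were higher and 2 lower, at a median of -0.35. These shares of 6.67% each were below the 14.8% and 12.8% of all genes. The lower genes were 6 and 7 without WT library 2 and bou-2 library 1. The day-only fit called 0 higher and 1 lower, and limma 1 lower. Leucine-rich repeat kinases had 26 of 113 lower and 3 higher, the 26 became 14 without bou-2 library 2, and the 3 became 8 without WT library 2. The day-only fit called 9 lower and none higher, and limma 14 lower.

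Raffinose sugars accumulate in cold and drought and are made by galactinol synthases (GOLS) and raffinose synthases. Of 6 listed genes 4 were tested, and all 4 were called lower, at a median of -2.53. GOLS2 was at 102, 87 and 93.8 TPM in WT and at 5.25, 3.77 and 7.8 TPM in bou-2, with no overlap (-4.19 ± 0.50 SE, edgeR adjusted p = 0.00033). GOLS3 gave -2.85 (adjusted p = 0.00384), RS5, a raffinose synthase, -1.76 (adjusted p = 0.00077), and GOLS1, the heat-induced form, -2.21 (adjusted p = 0.014), a call lost without bou-2 library 2 or 3 (adjusted p up to 0.0556). At night the 4 genes had a median of -1.15 with 2 called lower.

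Many cold-induced genes carry the C-repeat, the site of CBF transcription factors. Its letters, CCGAC on either strand, were in 16.3% of all promoters. They were in 16.7% of those of genes called higher and in 17.8% of those of genes called lower. Among the cold response genes described below 4 held a match, and 2 of these were called lower. A match was also in 3 of the 4 raffinose promoters, shown here from RefSeq (TAIR10.1) on the strand of the gene with the match in capitals.
GOLS2 (chr1:21207429-21207458, plus strand): aaacgtttagtaGTCGGtcgtatttaatta
GOLS3 (chr1:3019411-3019440, plus strand): cataaatagtagGTCGGccatgggtcggac
RS5 (chr5:16161285-16161314, plus strand): ggaaattacattGTCGGtaggtcaattaaa
Of 12 tested cold response genes 5 were lower and none higher, at a median of -0.93, and 3 without WT library 3 or bou-2 library 3 or 2 in the day-only fit. KIN2, a small hydrophilic protein of cold leaves, was at 3037, 1741 and 2599 TPM in WT and at 727, 511 and 400 TPM in bou-2 (-2.30 ± 0.26 SE, edgeR adjusted p = 0.00027). COR15A, which protects plastid membranes, was at 433, 749 and 1474 TPM in WT and at 378, 323 and 210 TPM in bou-2 (-1.68, adjusted p = 0.0179), and lost its call without WT library 3 or bou-2 library 3 (adjusted p up to 0.0692). RD29A was not called (-0.88, adjusted p = 0.0866).

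Several calls among hormone genes rested on WT library 2. Of 24 jasmonate genes 5 were lower and none higher at a median of -1.14, and without WT library 2 the counts were 3 lower and 1 higher. VSP1, a storage protein induced by jasmonate, was at 54.8, 102 and 47.7 TPM in WT and at 4.86, 17.6 and 4.08 TPM in bou-2 (-2.96 ± 0.62 SE, edgeR adjusted p = 0.00677), and AOC4, an enzyme of jasmonate synthesis, gave -1.05 (adjusted p = 0.00512). Both kept their calls with any library left out. JAZ10, a repressor of jasmonate signalling, was at 5.46, 15.1 and 4.64 TPM in WT and at 1.93, 3.29 and 2.53 TPM in bou-2, and lost its call without WT library 2 or bou-2 library 1 or 3, as did AOS, which starts the jasmonate branch, without WT library 2 or bou-2 library 2 or 3 (adjusted p up to 0.0763 and 0.0707). The count of lower genes was also 3 without bou-2 library 2 or in the day-only fit, 2 without bou-2 library 3 and 7 without WT library 3.

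Of 20 salicylic acid genes 1 was higher (5%) and 3 lower (15%). Over all genes 14.8% were higher and 12.8% lower, so the share called lower was near that of all genes. UGT76B1, which glucosylates salicylic acid, rose from 3, 3.32 and 0.596 TPM to 14.8, 8.21 and 8.58 TPM (2.13, edgeR adjusted p = 0.0128). PBS3, NIMIN1 and WRKY53 were the lower ones, with groups that overlapped, and each lost its call without 3 or more libraries. The count of lower genes was 6 without WT library 3, 0 without WT library 1 or bou-2 library 1 and 1 in the other fits, and 3 genes were higher without WT library 2. No gene of the list was called in the day-only fit, and limma called 2 higher and 1 lower. For abscisic acid 6 of 19 genes were higher (31.6%) and 3 lower (15.8%), against 14.8% and 12.8% of all genes. The median was -0.10, with 10 of the 19 below 0. PYL6, a receptor, went from 0.503, 0.753 and 0.433 TPM to 3.16, 2.58 and 2.91 TPM (2.25, adjusted p = 0.00192). PP2CA and HAI2, phosphatases that hold the pathway off, fell by 0.97 (adjusted p = 0.0023) and 1.96 (adjusted p = 0.00775). At night HAI2 was called higher in bou-2, at 1.64. The 6 became 2 without bou-2 library 2 or in the day-only fit and 3 without bou-2 library 1 or 3, and the 3 became 5 without WT library 2.

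Glucosinolates, the sulfur-containing defense compounds of this plant family, have an aliphatic branch made from methionine and an indole branch made from tryptophan. At day, 2 of 19 aliphatic genes were lower and none higher, at a median of -0.41. This share of 10.5% was not above the 12.8% of all genes called lower. At night 17 were lower, at a median of -1.64. The difference between the times was called for none of the 19 in edgeR, while 15 had an unadjusted p under 0.05, DESeq2 called 6 and limma none. The 2 day calls became 1 without WT library 1 or 3 or bou-2 library 2 or 3, in the day-only fit and by limma. MYB29, an activator of the branch, was at 52.2, 24.5 and 37.2 TPM in WT and at 17.9, 13.4 and 15 TPM in bou-2 (-1.38 ± 0.30 SE, edgeR adjusted p = 0.00841). IPMI-SSU2, a subunit of the chain-elongation isomerase, gave -0.96 (adjusted p = 0.043) with overlapping groups, and was not called without WT library 1 or 3 or bou-2 library 2 or 3. MAM1, the first enzyme of chain elongation, was not called (-0.89, adjusted p = 0.175), with 258 TPM in WT library 1 and 98.5 and 117 TPM in the others.

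MYB34, an activator of the indole branch, fell from 34.5, 28.9 and 25.3 TPM to 13.3, 10.2 and 10.4 TPM (-1.47, edgeR adjusted p = 0.00144). CYP71A13 and PAD3, which make the defense compound camalexin, gave -2.24 (adjusted p = 0.00284) and -1.56 (adjusted p = 0.0132) at day, and their effects differed from those at night (differences of -2.97 and -2.93, adjusted p = 0.0368 and 0.0331). PAD3 lost its day call without bou-2 library 2 (adjusted p = 0.0559). CYP71A13 was at 14.6, 42.3 and 23.6 TPM in WT and at 7.23, 3.87 and 7.48 TPM in bou-2, with WT library 2 the highest. Of 9 myrosinase and specifier genes, which break glucosinolates down, TGG1 and ESP were the lower 2 (4 without WT library 1 or 3). TGG1 was at 2050, 1358 and 2000 TPM in WT and at 1136, 661 and 706 TPM in bou-2 (-1.21, adjusted p = 0.00576), and ESP gave -1.45 (adjusted p = 0.00055).

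Peroxisomes break down fatty acids by beta-oxidation. Of 12 tested genes 9 were higher and 2 lower, at a median of 0.75, and 7 to 10 were higher with a library left out. LACS6, which activates the fatty acids, was at 31.2, 39.7 and 30.6 TPM in WT and at 75.2, 72.2 and 92.2 TPM in bou-2 (1.15 ± 0.11 SE, edgeR adjusted p = 0.00012). ACX4 (1.07, adjusted p = 0.00038), MFP2 (1.25, adjusted p = 0.00034) and KAT2 (0.91, adjusted p = 0.00044) carry out the following steps. The lower genes were KAT5, a thiolase form linked to flavonoid synthesis (-1.29, adjusted p = 0.0029), and PCK1, which starts gluconeogenesis and is not a peroxisomal enzyme (-0.79, adjusted p = 0.0273, lost without WT library 1 or bou-2 library 2 or 3), and 1 gene was lower in the day-only fit.

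Nitrate uptake and reduction had 6 of 13 genes higher and 1 lower (none lower in the day-only fit or by limma). NIA1, a nitrate reductase, was at 46.2, 30 and 35 TPM in WT and at 164, 106 and 132 TPM in bou-2 (1.77 ± 0.28 SE, edgeR adjusted p = 0.00137), and NIA2, the main nitrate reductase of leaves, at 432, 608 and 518 TPM and at 1022, 832 and 1146 TPM (0.85, adjusted p = 0.00178). NRT1.1, the nitrate transporter and sensor, was higher at day (0.47, adjusted p = 0.00308) and lower at night (-0.83), and the difference of 1.30 was called (adjusted p = 0.00228). Of 12 phosphate starvation genes 4 were lower and none higher, with SPX1, a phosphate sensor, at 47.1, 50 and 32.6 TPM in WT and 14.8, 12.2 and 21.2 TPM in bou-2 (-1.54, adjusted p = 0.00138).

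Among genes of carbon supply, 6 of 21 for carbon starvation and amino acid breakdown were higher and 1 lower (2 lower with any 1 WT library left out). DIN10, a raffinose synthase-like gene induced by darkness, rose from 11.2, 6.33 and 2.69 TPM to 33.6, 32.1 and 31.9 TPM (2.23, edgeR adjusted p = 0.00352), and IVD, which breaks down leucine, from 6.26, 6.87 and 5.23 TPM to 12.8, 11.8 and 14.3 TPM (1.00, adjusted p = 0.00016). Of 22 starch genes 7 were lower and 1 higher (3 higher without WT library 3 or by limma). MEX1, which exports maltose from plastids, gave -1.13 (adjusted p = 0.00029) and LDA, a debranching enzyme, -0.95 (adjusted p = 0.00016), while PHS2, the cytosolic glucan phosphorylase, went from 16.1, 18 and 21.7 TPM to 52.1, 50.3 and 49.2 TPM (1.35, adjusted p = 0.00019). Sucrose transporters SUC1 (1.08, adjusted p = 0.00114) and SWEET11 (0.98, adjusted p = 0.011) were among 4 of 15 sugar genes that rose.

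In the ascorbate and glutathione cycle, which removes hydrogen peroxide, 3 of 8 tested genes were higher and 3 lower (1 lower in the day-only fit). SAPX, the stromal and mitochondrial ascorbate peroxidase, rose from 91, 103 and 96.3 TPM to 224, 233 and 244 TPM (1.18 ± 0.14 SE, edgeR adjusted p = 0.00028), and DHAR2, a cytosolic dehydroascorbate reductase, gave 1.71 (adjusted p = 0.00062). Its plastid form DHAR3 went from 270, 171 and 220 TPM to 127, 118 and 121 TPM (-0.95, adjusted p = 0.0008), and TAPX, the thylakoid ascorbate peroxidase, gave -0.80 (adjusted p = 0.00401).

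Some genes that conjugate and export foreign compounds were among those with the largest rises. CYP81D11, a cytochrome P450 induced by reactive electrophiles, was at 0.08, 0.113 and 0 TPM in WT and at 16.6, 21.7 and 21.7 TPM in bou-2 (8.20 ± 0.57 SE). GSTU1, a glutathione S-transferase, went from 0.634, 2.25 and 1.36 TPM to 55.4, 48.9 and 69.6 TPM (5.24 ± 0.34 SE, edgeR adjusted p = 1.6e-05). UGT73C1, a glucosyltransferase, went from at most 0.189 TPM to 10 to 15.2 TPM (6.45). In none of these did any bou-2 library come near the WT range. CYP81D11 and UGT73C1 had 7 and 15 estimated counts over the WT day libraries, too few to pass the filter on those libraries. Their calls are therefore no support for a rise. Of 119 cytochrome P450 genes 17 were higher and 17 lower (11 and 10 in the day-only fit). These shares of 14.3% each were near the 14.8% and 12.8% of all genes. Of 39 glutathione S-transferase genes 9 were higher and 4 lower (14 higher without WT library 2 and 0 lower without bou-2 library 3 or in the day-only fit), of 105 UDP-glycosyltransferases 21 and 11 (4 lower without bou-2 library 2 or 3, 3 in the day-only fit and 6 by limma), and of 42 MATE efflux carriers 11 and 7 (4, 1 and 3 lower without bou-2 library 1, 2 and 3, 6 higher and 4 lower in the day-only fit and 4 lower by limma). In the same order, the shares called higher were 23.1%, 20% and 26.2%, and the shares called lower 10.3%, 10.5% and 16.7%. The medians of these families were 0.06, -0.06 and 0.02, so most members did not follow the largest rises. DTX1, a MATE carrier that exports toxins, rose from 1.11, 2.54 and 1.1 TPM to 34.7, 20.8 and 28.2 TPM (4.05, adjusted p = 0.00013). Neighbouring copies such as UGT73B1 (3.81) and UGT73B2 (2.87) are alike in sequence and may share reads.

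GRP3S, a short glycine-rich protein, rose from 90.2, 257 and 113 TPM to 4120, 4035 and 3895 TPM (4.58 ± 0.38 SE, edgeR adjusted p = 6.6e-05), and its 3 bou-2 libraries lay within a narrow range. AT5G05250, which has no description in the table, fell from 60.7, 60.8 and 54.6 TPM to 5.08, 4.4 and 4.5 TPM (-3.75 ± 0.16 SE, adjusted p = 3.5e-06), and these libraries agreed closely within each group. AT3G25719, also without a description, had 1 estimated count over the WT libraries and 293 over the bou-2 libraries, a ratio of 439 at equal depth with a 95% counting interval of 78.1 to 17385. AT1G36272 had no count in WT and 42 in bou-2, at least 21-fold higher against a floor of 3 counts over the group. AT1G49700 had a transcript at 6.23, 12.8 and 6.74 TPM in WT and at most 0.0075 TPM in bou-2, at least 104-fold lower against the same floor, but with the counts of all its transcripts summed the log2 fold change was 0.33. LTP3, a lipid transfer protein, fell from 545, 33.4 and 132 TPM to 10.7, 12.4 and 14.9 TPM (-4.31, adjusted p = 0.00661), with WT libraries spread widely. AT2G43580, a chitinase, was at 0.883, 53.2 and 3.4 TPM in WT and at 0.292, 0.656 and 0.79 TPM in bou-2 (-5.13, adjusted p = 0.0241), and its call was lost without WT library 2 or any bou-2 library (adjusted p up to 0.0983).

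Among transcription factors, 10 of 68 NAC genes were higher and 3 lower (14.7% and 4.41%), and 5 of 71 MYB genes were higher and 16 lower (7.04% and 22.5%). The NAC share called higher was near the 14.8% of all genes, and the 16 MYB genes became 9 without bou-2 library 2 or 3. The 3 lower NAC genes became 8 without WT library 3 and 1 without WT library 1 or bou-2 library 2, and the 5 higher MYB genes 2 without bou-2 library 3 and 3 without WT library 3 or bou-2 library 1 or 2. In the day-only fit no NAC gene was lower, 2 MYB genes were higher and 6 lower, and limma called 1 NAC gene lower. NAC102 was at 21.9, 24.2 and 13.5 TPM in WT and at 139, 177 and 167 TPM in bou-2 (2.94 ± 0.22 SE, edgeR adjusted p = 3.6e-05), and its close relatives NAC032 and ATAF1, all of the ATAF subgroup of stress regulators, gave 2.37 (adjusted p = 0.00023) and 1.45 (adjusted p = 0.00013). AT1G10585, a bHLH factor, rose from 5.37, 6.09 and 5.44 TPM to 52.7, 57.4 and 60 TPM (3.22, adjusted p = 3.5e-06). WRKY60 gave 2.35 (adjusted p = 0.00023) and PAP2, an activator of anthocyanin synthesis, 3.30 (adjusted p = 0.00146). Downwards, PRE1, a growth-promoting bHLH protein, gave -2.16 (adjusted p = 0.00613) and HSFC1, a heat shock factor, -1.73 (adjusted p = 0.00183).

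The circadian clock is built from genes that peak in the morning and repress those of the evening, and the reverse. Of 10 morning genes 3 were lower and none higher, and of 10 evening genes 3 were higher and none lower. ELF3, an evening gene that holds back growth at night, was at 5.03, 5.06 and 4.35 TPM in WT and at 12.8, 9.91 and 14.6 TPM in bou-2 (1.28 ± 0.10 SE, edgeR adjusted p = 4.3e-05), and TOC1 gave 0.83 (adjusted p = 0.00589). LUX, from at most 0.802 TPM in WT, was called at 2.60 (adjusted p = 0.0444) and lost the call without 4 libraries. PRR7, a morning gene, gave -0.66 at day (adjusted p = 0.0286, lost without 4 libraries) and 1.74 at night. The count of 3 morning genes was 1 without WT library 1 or 2 or bou-2 library 1 or 2 and by limma, and 1 evening gene was called in the day-only fit. PIF4, a growth-promoting bHLH factor that ELF3 represses, was at 13.9, 10.8 and 14.8 TPM in WT and at 5.36, 5.36 and 5.63 TPM in bou-2 (-1.36 ± 0.15 SE, adjusted p = 0.00024), and its effect at night was 0.17, a difference of -1.54 (adjusted p = 0.0181).

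Several other named genes differed between day and night. KMD4, an F-box protein that marks cytokinin response regulators for breakdown, was at 19.2, 25.8 and 24.8 TPM in WT and at 8.58, 9.85 and 11 TPM in bou-2 at day (-1.34, edgeR adjusted p = 0.00046), and it was higher in bou-2 at night (0.93). TPS8 and TPS10 are class II trehalose phosphate synthases, proteins that respond to sugar supply. TPS8 fell at day by 0.94 on the log2 scale (adjusted p = 0.00902) and was higher at night (1.19), while TPS10 was higher at both times (0.74 and 2.04). PPCK1, a kinase of phosphoenolpyruvate carboxylase, gave -1.27 at day (adjusted p = 0.0022) and 0.37 at night, and LHCB2.2, an antenna protein of photosystem II, -1.43 (adjusted p = 0.00083) and 0.15. GSTU7, a glutathione S-transferase, was at 10.3, 19.5 and 12.8 TPM in WT and at 66.4, 89.1 and 81.5 TPM in bou-2 at day (2.37, adjusted p = 0.0001), and gave 0.40 at night. Of the 15 named genes with a called difference, 5 (PRR7, KMD4, TPS8, NRT1.1 and UGT73B2) kept that call with each of the 12 libraries left out in turn, and 10 lost it without 1 or more of them.

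**Figure D4:**
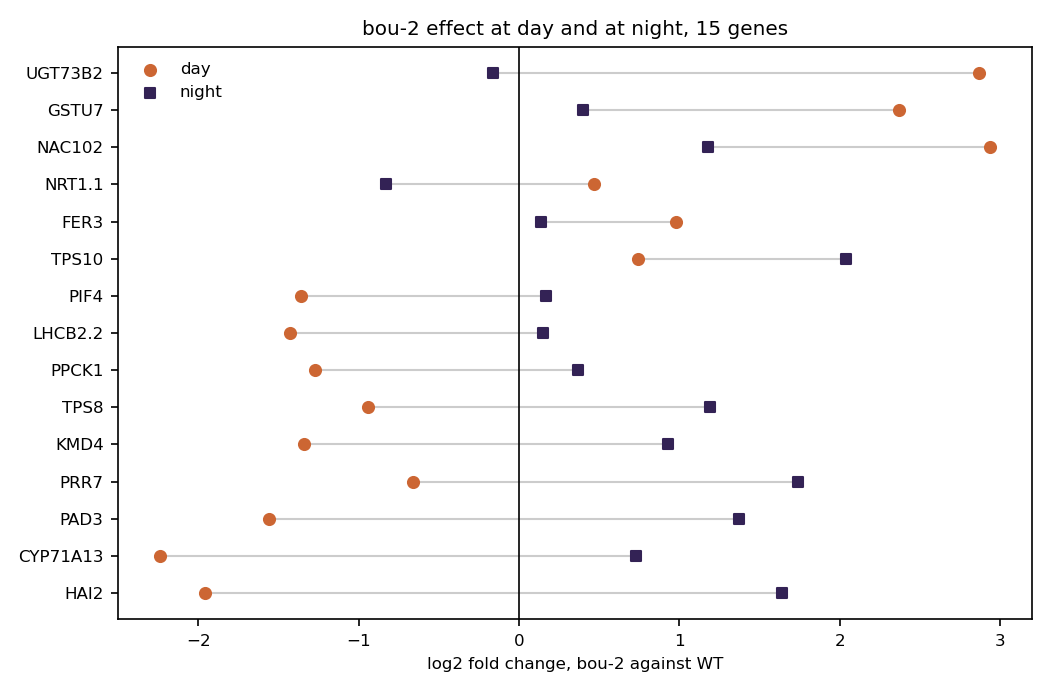
Log2 fold change of bou-2 over WT (horizontal axis) at day (circles) and at night (squares) for the 15 genes named in the text whose effects at the 2 times differed by edgeR's test. The differences run from -3.60 for HAI2 to 3.03 for UGT73B2, and PRR7, TPS8, KMD4, PAD3, HAI2 and NRT1.1 were called in opposite directions at the 2 times.

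Transposable element (TE) genes are annotated genes of mobile elements, which the plant keeps silent by DNA methylation. The table lists 3891 of them, all of the tested ones RefSeq pseudogenes, and 368 were tested. Of these 213 (57.9%) were called higher and 18 lower (5 lower in the day-only fit and 10 by limma). The filter on low counts would have kept 141 on the WT libraries alone, of which 17 were higher and 18 lower. Neither count was above the share of all genes, 14.8% higher and 12.8% lower. The other TE genes were tested because of their counts in bou-2, so their number is no support for a rise. Counts that do not depend on the filter were also higher in bou-2. The number of TE genes with any count was 669, 609 and 491 in WT and 1051, 1196 and 1007 in bou-2, although the bou-2 libraries were less deep, and the share of all estimated counts was 0.123, 0.143 and 0.113% in WT and 0.184, 0.192 and 0.196% in bou-2. The groups did not overlap in either measure. A few genes can carry the share of counts, since the most abundant TE gene called higher had a mean of 314 TPM in bou-2. Its part in the difference was not tested.

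Of the 213 higher TE genes 46 had no count in any WT day library, and their lower bounds ran from 7.49-fold to 98.8-fold with a median of 19.7-fold, against a floor of 3 counts over the group. Most were weakly expressed even in bou-2, with a median of 0.556 TPM, and 11 reached 5 TPM. They lay on all 5 chromosomes, at 40, 53, 46, 34 and 40 genes on chromosomes 1 to 5. AT5G35935 was at 0.0121, 0.0384 and 0.0313 TPM in WT and at 2.73, 2.52 and 2.57 TPM in bou-2 (6.45 ± 0.46 SE). Its 14 estimated counts over the WT day libraries were too few to pass the filter there, so its call is no support for a rise. AT3G42720 had 1 estimated count in WT and 231 in bou-2, a ratio of 346 at equal depth (95% counting interval 61.5 to 13719). SADHU4-1 went the other way, from 18.7, 14.8 and 13.8 TPM to 8.73, 6.42 and 8.8 TPM (-1.09, edgeR adjusted p = 0.00046). Copies of one element are alike in sequence, so that reads may have been split between them.

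Of 14 genes for DNA methylation and silencing 3 were lower (21.4%, against 12.8% of all genes) and none higher. Any link of these genes to the TE genes was not tested. MET1, which maintains CG methylation, was at 13.5, 9.12 and 8.98 TPM in WT and at 9.22, 4.86 and 6.43 TPM in bou-2 (-0.70 ± 0.18 SE, edgeR adjusted p = 0.0188), CMT2, a methyltransferase of other contexts, gave -0.58 (adjusted p = 0.0157), and NRPD1, the large subunit of RNA polymerase IV, -0.59 (adjusted p = 0.0162). The groups overlapped for MET1 and CMT2, and all 3 calls were lost without bou-2 library 2 or 3 (adjusted p up to 0.0736), in the day-only fit and by limma. DDM1, the chromatin remodeller that keeps elements silent, was not called (-0.45, adjusted p = 0.225).

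**Figure D5:**
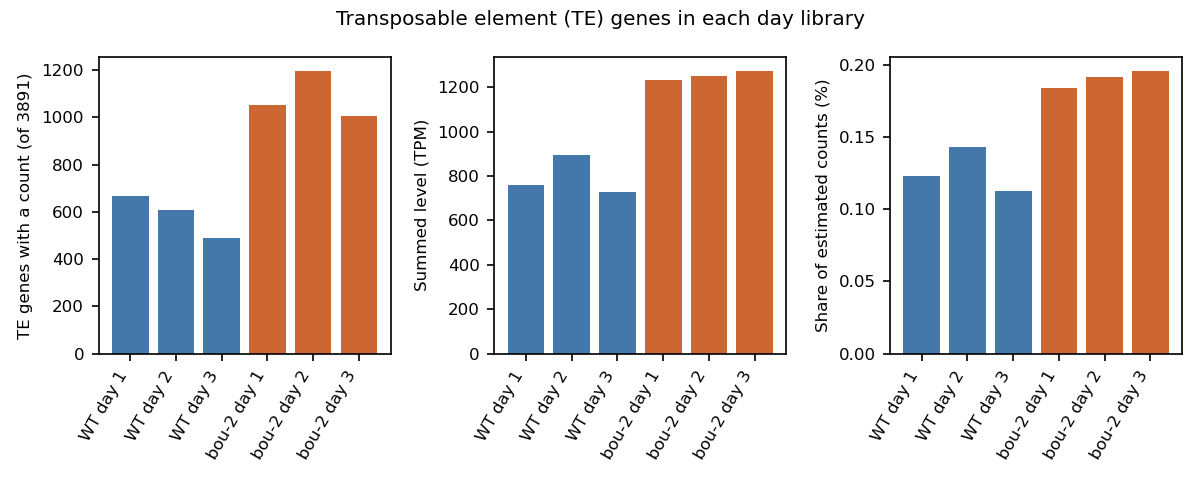
Number of TE genes with a count (left), their summed level in TPM (middle) and their share of the estimated counts in percent (right) in each of the 6 day libraries, WT in blue and bou-2 in orange, with bars from 0. Each bou-2 bar is higher than each WT bar, as for the summed level (1233 to 1273 TPM against 727 to 896 TPM). The most abundant TE gene called higher had a mean of 314 TPM in bou-2.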

How the data were processed

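Plants, harvests and groups are described above. Per the labels and the study's methods, the authors pseudoaligned the reads to TAIR10 transcripts with kallisto 0.43.0 and tested them with sleuth 0.28.1. The table they deposited holds estimated counts and TPM per transcript and library. Its columns of SD of TPM, of the authors' own log2 fold changes and of q-values were not used. Repeated lines were dropped (23), which left 41392 transcripts of 33326 loci.

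Estimated counts were rounded and tested with edgeR 4.0.16 (R 4.3.3): filterByExpr (minimum count 10, total 15), TMM factors, and a quasi-likelihood fit of 4 group means over all 12 libraries, with p-values adjusted over 26153 transcripts. The common biological coefficient of variation was 28.4%. kallisto splits reads of near-identical copies between them. Alternatives used limma 3.58.1 on log2(TPM + 1), DESeq2 1.42.0, counts summed per gene, thinned counts, other factors and filters, the 6 day libraries, a replicate block and each library left out. Counting intervals and floors cover counting error only, and p-values measure only the spread between these libraries.

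Genes were named by rule: BOU, the 15 largest changes per direction, the 15 largest TPM differences, up to 4 called members per list or family and direction, any member of lists of up to 20 genes, and up to 10 transcription factors per direction. Members and lists were chosen with earlier results of these data known. The family of defensins and thionins was dropped because its pattern matched methionine. Promoters and coordinates came from RefSeq TAIR10.1.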

Additional observations from a re-analysis of the deposited data

Results flagged for a closer look

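For 15 named genes the effect of bou-2 at day differed from that at night by the interaction term of edgeR, given as the day effect minus the night effect on the log2 scale. It was above 0 for FER3 (0.83), NRT1.1 (1.30), NAC102 (1.76), GSTU7 (1.97) and UGT73B2 (3.03). It was below 0 for TPS10 (-1.30), LHCB2.2 (-1.58), PIF4 (-1.54), PPCK1 (-1.64), TPS8 (-2.13), KMD4 (-2.27), PRR7 (-2.40), PAD3 (-2.93), CYP71A13 (-2.97) and HAI2 (-3.60). Their edgeR adjusted p ran from 0.00228 (NRT1.1) to 0.0368 (FER3, CYP71A13 and PPCK1). PRR7, KMD4, TPS8, NRT1.1 and UGT73B2 kept an adjusted p of at most 0.0394 with any of the 12 libraries left out, and the others reached 0.0662 to 0.102.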

How the results depend on the processing

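The 3021 genes called higher at day were 1452 with only the 6 day libraries fitted, 3524 by DESeq2 and 2213 to 3231 with 1 library left out. The 2627 called lower were 1703 by limma, 822 with the 6 day libraries, 3078 by DESeq2 and 1577 to 2841 with 1 library left out. The 110 genes with a higher and the 132 with a lower effect at day than at night were 552 and 488 by DESeq2, 207 and 205 with counts summed per gene, 22 to 548 and 30 to 534 with 1 library left out. Replicate numbers did not pair the libraries, since same-numbered day libraries deviated with r of 0.07, 0.05 and -0.09. A replicate block left 2656 genes higher and 2209 lower at day, and 49 and 47 that differed between the times. AT1G49700, a named gene with a large fall, was the only named gene called at day whose fold change changed sign (0.33 with counts summed per gene). The uncalled OM66, LHCA5 and CER3 also crossed 0, at up to 0.04, 0.24 and 0.15, the values without WT library 2, 3 and 1. Of the 226 counts of calls per list or family and direction, 120 moved by more than 1.5 times in the fit of the 6 day libraries, all to fewer calls and 36 to none, and 54 by limma (34 to fewer), 34 by DESeq2 (all to more), 35 with counts summed per gene (32 to more) and 18 with the replicate block (15 to fewer). With the 6 day libraries the counts were 57 for the 140 higher ribosomal protein genes, 30 for the 82 PPR genes and 18 for the 32 proteasome genes. They were 3 for the 17 lower photosystem genes and 2 for the 8 tubulins. They were 10 for the 10 higher retrograde genes, 4 for the 4 ferritins, 14 for the 17 lower antenna genes and 10 for the 14 wax genes. Of the 10 higher retrograde genes, 7 would have passed the filter on the WT libraries alone. DESeq2 called 20 higher respiratory chain genes in place of 12 and 7 autophagy genes in place of 4. It called 8 lower cold genes in place of 5, 10 jasmonate genes in place of 5, 6 myrosinase and specifier genes in place of 2, 8 glutathione S-transferases in place of 4 and 9 translation factors in place of 5. With the replicate block, 12 ribosomal protein genes were lower in place of 20, 3 translation factors in place of 5, and 1 leucine-rich repeat kinase was higher in place of 3. Of the 158 named genes called at day, 126 kept the call under every alternative and 31 lost it under at least 1, with 25 lost in the fit of the 6 day libraries, 11 by limma and 7 with the replicate block. With 3 libraries per group, a common biological coefficient of variation of 28.4% and 15911356 counts in the least deep library, small differences can exist among genes without a call.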
